A study of Drosophila melanogaster with 4 samples.

Results

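Some H3K36me3 regions of the Drosophila genome stood alone. Of the 3981 enriched regions in the authors' combined list, 328 (8.24%) were isolated: they lay on the autosomal arms 2L, 3L and 3R, were narrower than 10 kb and had at least 10 kb without another listed region on each side. Other arms, 2R among them, were not searched, so 8.24% is not a rate for the whole genome. The 1 Mb next to the centromere and the first and last region of an arm were left out. On the same stretches the list held 1484 narrow regions with a nearer neighbour, called closely spaced here, and 406 broad regions of 10 kb or more. Isolated regions thus made up 18.1% of the 1812 narrow regions and held 1.42 Mb, 9.91% of the listed bases of these stretches. Width, gap and listing chose the isolated regions, so these values describe the choice and are not a finding.

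The lists come from nuclei of larvae of the last instar of Oregon-R-modENCODE, a wild-type laboratory strain of Drosophila melanogaster. There were 2 ChIP samples made with an antibody from abcam against H3K36me3 and 2 input samples, chromatin sequenced without immunoprecipitation. The labels number both kinds as replicates 1 and 2. They do not say whether an input and the ChIP sample of equal number come from the same chromatin. All 4 samples share strain, genotype and stage, and no other genotype or treatment was compared. Whether the replicates are separate collections is not stated, and their spread may be technical. Crosslinked chromatin of homogenised larvae mixes many tissues. A low score can therefore mean fewer nuclei with the mark or less mark per nucleus, which cannot be told apart. The stage could not be checked against marker genes, because no region was assigned to a gene. Replicate 1 has 3785 enriched regions and replicate 2 has 3956. Coordinates are those of the files, which have the sequence lengths of Release 5, and are counted from 1.

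H3K36me3 is trimethylation of lysine 36 of histone H3. In flies the enzyme Set2, which travels with elongating RNA polymerase II, places most of it, so the mark lies over the bodies of transcribed genes and rises towards their 3′ ends. It is read by chromatin proteins, among them the chromodomain protein MSL3 of the dosage compensation complex on the male X. On autosomes, neighbouring active genes often give regions that lie close together or run into each other. A region that stands alone has both of its edges apart from those of other regions.

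The surroundings of the isolated regions were also empty in each replicate list. In the combined list 97.2% of the bases in the kilobase on either side of a region centre lay inside a listed region, and the value was 88.8% in replicate 1 and 91.0% in replicate 2. Between 5 and 10 kb from the centre the coverage was 0% in the combined list, as the rule requires, 0% in replicate 1 and 0.0398% in replicate 2. Because the combined list was made for the same ChIP samples, the replicate values are not independent of the rule. Beyond the empty flanks coverage came back to 19.6% at 30 to 60 kb in the combined list, 18.6% in replicate 1 and 19.0% in replicate 2. Around closely spaced regions it was 25.4% at that distance in the combined list. The sequence around isolated regions was thus less covered than that around closely spaced ones even beyond the 10 kb that the rule used. It was not low for these arms: the middle group of 1 Mb windows ranked by covered share, described below, had a median of 19.0%. Coverage around isolated regions was near that value, and coverage around closely spaced ones was above it. Gaps often run further than 10 kb, so this is no separate measure.

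**Figure D1:**
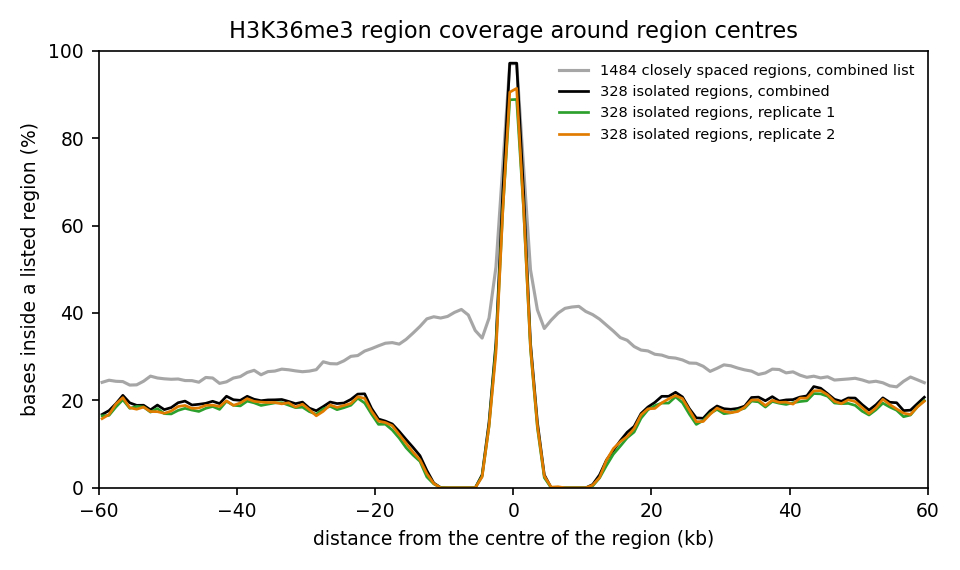
Share of bases inside a listed H3K36me3 region (vertical axis, in %) against distance from the region centre (horizontal axis, in kb, bins of 1 kb) for the 328 isolated regions in the combined list and in each replicate list, and for the 1484 closely spaced regions in the combined list. The 3 isolated curves nearly coincide: they fall to about 0 between 5 and 10 kb on either side and level off near 19% beyond 30 kb.

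Isolated regions were spread over all 3 arms that were searched, most densely on 3R. There were 94 on 2L, 94 on 3L and 140 on 3R, or 4.27, 3.99 and 5.20 per Mb. Picked by the same rule in each replicate list, they numbered 95 and 91 on 2L, 105 and 99 on 3L, and 149 and 137 on 3R. Their density was 4.23 ± 0.128 per Mb on 2L, 4.33 ± 0.180 on 3L and 5.31 ± 0.315 on 3R (SD, n = 2 replicates). The difference of 3R from either other arm was larger than these SDs, while 2L and 3L differed by less. The order depends on weak regions: with the regions under the median score of the combined list left out, 3R had 3.64 isolated regions per Mb, against 4.27 on 2L and 4.29 on 3L. As a share of narrow regions, the isolated ones made up 18.2% ± 1.33 on 2L, 16.7% ± 1.56 on 3L and 21.4% ± 1.58 on 3R in the replicate lists.

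Along the arms, isolated regions were found at a similar rate in sparsely and in densely marked sequence. Of 71 whole 1 Mb windows, 70 held at least 1 isolated region, with a median of 4 and a highest count of 10. When the windows were ranked by the share of bases inside regions and split into 3 groups, the groups had a median covered share of 13.6%, 19.0% and 26.4%. They held 4.75, 4.57 and 4.38 isolated regions per window. The isolated share of all regions fell across the same groups, from 21.7% to 14.9% and 11.1%. Across windows the count and the covered share had a Spearman rho of -0.02 (71 windows of the same list, which is a description). The fullest windows were 3L from 4000001 to 5000000 and 3R from 17000001 to 18000000, with 10 each. The same windows had 12 and 9 in replicate 1 and 11 and 9 in replicate 2. The one window with 0 was 3L from 1000001 to 2000000, where 38 regions covered 31.4% of the bases; replicate 1 had 2 isolated regions there and replicate 2 had 0. These windows were chosen after their values were seen.

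The smaller gap had a median of 18580 bp and reached 234265 bp, and the larger had a median of 65161 bp and reached 462235 bp. The smaller gap was 20 kb or more for 151 regions (46.0%), 50 kb or more for 43 (13.1%) and 100 kb or more for 10 (3.05%). The larger gap was 100 kb or more for 109 regions (33.2%), and for 35 regions (10.7%) it stayed under 20 kb. It was at least 3 times the smaller for 130 regions (39.6%). The ratio of the larger to the smaller gap had a median of 2.37, against 9.97 for closely spaced and 6.70 for broad regions. The rule, which sets a lowest gap for isolated regions alone, limits this ratio. The larger gap faced the centromere for 168 regions and the telomere for 160, with 47 against 47 on 2L, 44 against 50 on 3L and 77 against 63 on 3R. No arm had all or nearly all of its larger gaps on one side.

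**Figure D2:**
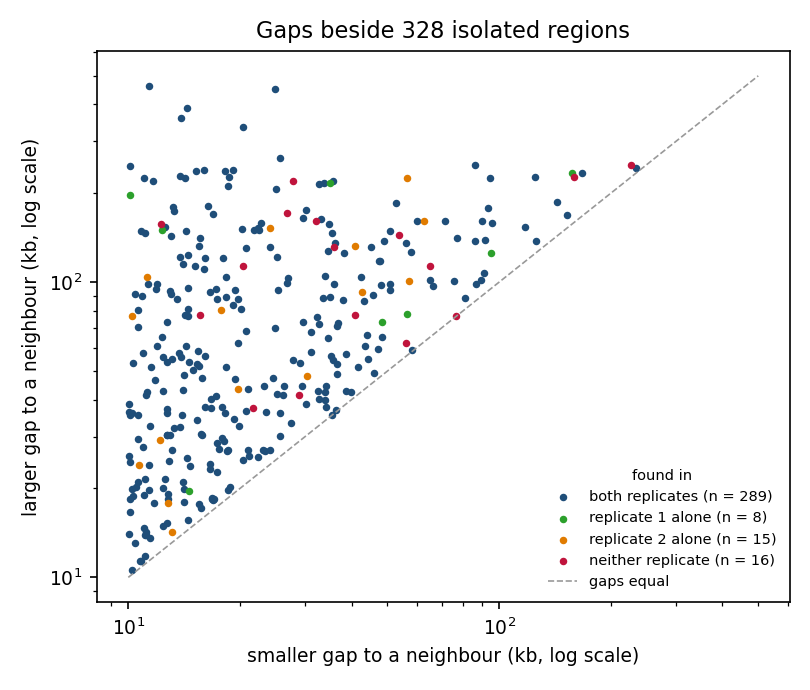
Smaller and larger gap to the neighbouring listed regions (both axes in kb, log scales) for the 328 isolated regions of the combined list, 1 point each, coloured by the replicate lists in which the region was found. Points lie from the 10 kb limit up to 234 kb for the smaller gap, and regions found in neither replicate occur over most of that range.

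The region with the most empty surroundings in the combined list was 3L from 10212350 to 10218117, with gaps of 244 and 234 kb. Its score percentile, the rank of the score among all regions of the list, was 42.1 in the combined list, 36.7 in replicate 1 and 42.3 in replicate 2. Its neighbour on one side, 3L from 10452383 to 10456614, was also isolated, with a smaller gap of 167 kb and percentiles of 54.4, 49.1 and 50.5. Both were therefore of middle score in every list. The other 3 of the 5 regions with the largest smaller gap were weak. Those on 2L from 14616369 to 14617480, with a smaller gap of 227 kb, and from 14844554 to 14846105, with 159 kb, were found in neither replicate list and had percentiles of 3.20 and 6.95. That on 3R from 2720752 to 2721931, with 158 kb, was found in replicate 1 alone, with percentiles of 1.07 in the combined list and 0.727 in replicate 1.

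Neighbours of isolated regions were often isolated too. Of 656 neighbour positions, 232 (35.4%) held an isolated region, 315 (48.0%) a closely spaced one, 107 (16.3%) a broad one and 2 a region outside the stretches used. Isolated regions made up 14.8% of all regions there, but a gap shared by neighbours meets the rule for both, so the higher share follows in part from the rule. Broad regions held 17.2% of the neighbour positions of closely spaced regions and made up 18.3% of all regions, close to their share beside isolated ones. In all, 196 isolated regions stood in 80 runs of consecutive isolated regions, of which 52 had 2 members, 28 had 3 or more and 6 had 4 or more. The 2 longest runs had 5 members each. One spanned 320 kb of 3R from 21961615 to 22281516, with 4.81% of its bases inside regions, and the other 121 kb of 3R from 3518004 to 3638832, with 9.29%. In each, 4 of the 5 members were found in both replicates.

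Isolated regions had nearly the widths of closely spaced ones. Their median width was 3899 bp (quartiles 2629 and 5725 bp, range 1099 to 9736 bp), against 4123 bp for closely spaced regions. In the replicate lists, where the rule picked 349 and 327 isolated regions, the medians were 4028 and 3840 bp, against 4281 and 4126 bp for closely spaced regions. The isolated share of narrow regions was between 15.7% and 21.3% in every width class from under 2 kb to 10 kb, and it was highest at 3 to 4 kb. Among the broad regions, 65 of 406 (16.0%) also had 10 kb or more on both sides.

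The scores of the widest isolated regions ranged from middle to high. On 3L, the regions from 13918383 to 13928112, from 6479248 to 6488886 and from 8711255 to 8720614 were 9.73, 9.64 and 9.36 kb wide. Their score percentiles were 92.6, 86.8 and 84.8 in the combined list, 90.0, 84.4 and 82.8 in replicate 1 and 91.8, 84.0 and 83.5 in replicate 2. The widest of all, 2L from 20087881 to 20097616 with 9.74 kb, had percentiles of 49.7, 45.0 and 46.3 in the same order of lists. The remaining one, 3R from 5925763 to 5935275 with 9.51 kb, had 56.2, 60.6 and 44.8. The 3 narrowest lay on 3R from 17004249 to 17005347, on 2L from 14616369 to 14617480 and on 3L from 12564332 to 12565449. They were between 1.10 and 1.12 kb wide, and none of them was found in a replicate list. No region in replicate 1 was under 1301 bp and none in replicate 2 under 1305 bp. Regions of this width could therefore be found there only by overlap with a wider one.

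Scores were spread widely, with a low and a high peak. The score is the authors' value, without a stated unit, and ran from 0.0163 to 2.38 over the isolated regions, with a median of 1.37. In bins of 0.2, the combined list had 43 isolated regions from 0.2 to 0.4, 15 from 1.0 to 1.2 and 43 from 1.8 to 2.0. Among isolated regions matched 1 to 1 in replicate 1 there were 32 from 0.4 to 0.6, 14 from 1.0 to 1.2 and 47 from 1.8 to 2.0. In replicate 2 there were 39 from 0.6 to 0.8, 17 in each bin from 0.8 to 1.2 and 38 from 1.8 to 2.0. Closely spaced regions also had a low and a high peak. Their lowest bin in between was 0.6 to 0.8 in the combined list, with 91 of 1484 regions. Among those matched 1 to 1 it was 0.8 to 1.0 in replicate 1 (81 of 1281) and 1.0 to 1.2 in replicate 2 (92 of 1347). The lowest bin thus differed from that of isolated regions in the combined list and in replicate 1, but not in replicate 2. The peaks differed in width. The 106 isolated regions that scored under 0.8 had a median width of 2238 bp, and 89 of them were under 3 kb. The 187 that scored 1.2 or more had a median width of 5242 bp, and 5 of them were under 3 kb. The limits of 0.8 and 1.2 were chosen after the values were seen.

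**Figure D3:**
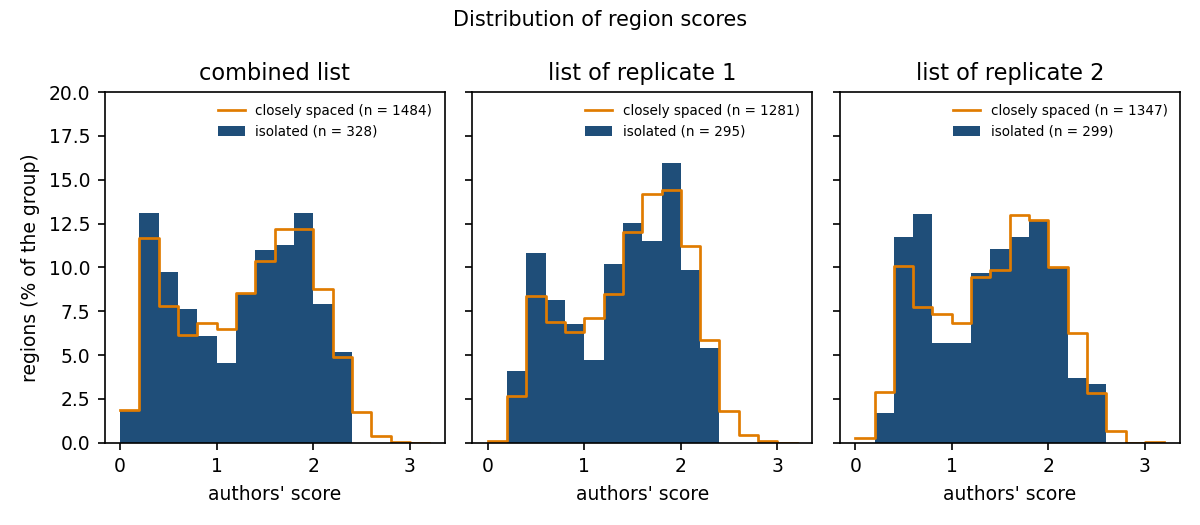
Distribution of the authors' scores (horizontal axis, bins of 0.2, no unit given) as a share of regions (vertical axis, in %) for isolated regions (bars) and closely spaced regions (line) in the combined list and, for regions matched 1 to 1, in each replicate list. The bars show a low and a high peak in all 3 panels, with the fewest isolated regions between the peaks at 1.0 to 1.2 in the combined list and in replicate 1 and at 0.8 to 1.2 in replicate 2.

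Score rose with width. Among isolated regions the median percentile in the combined list was 5.16 under 2 kb, 17.0 from 2 to 3 kb, 39.6 from 3 to 4 kb, 53.1 from 4 to 5 kb, 61.0 from 5 to 6 kb, 64.8 from 6 to 8 kb and 74.6 from 8 to 10 kb. Width and score had a Spearman rho of 0.79 across the 328 regions, which share libraries and caller. Isolated regions were also set against closely spaced regions of like width. The difference of medians, isolated minus closely spaced, averaged over 1 kb width classes with the number of isolated regions as weight, was -3.34 percentile points in replicate 1 (295 isolated regions) and -1.20 in replicate 2 (299). With the percentiles of both replicates averaged for each region it was -2.50 (283 regions), and it was -0.956 after regions less than 1 kb apart were merged. In replicate 1 the isolated median was below the closely spaced one in every width class given above. In the combined list the isolated median was above the closely spaced one under 2 kb (5.16 against 4.85), at 5 to 6 kb (61.0 against 59.7) and at 8 to 10 kb (74.6 against 72.6). In replicate 2 it was above at 5 to 6 kb (59.5 against 57.4) and at 8 to 10 kb (77.1 against 70.4), and in both lists it was below in the other classes. Over all widths together, the isolated regions had quartiles of 18.6 and 65.3 in the combined list. That spread includes the rise with width, so the differences at like width cannot be judged against it. Among the 10% of the combined list with the highest scores were 17 (5.18%) of the isolated regions, against 106 (7.14%) of the closely spaced and 91 (22.4%) of the broad regions.

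**Figure D4:**
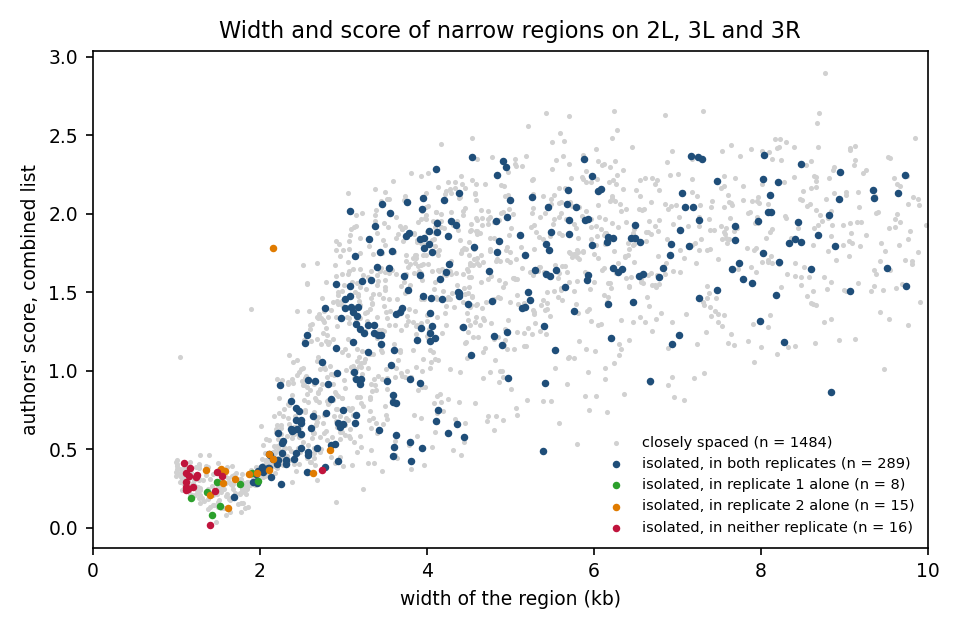
Width (horizontal axis, in kb) and score in the combined list (vertical axis, no unit given) of narrow regions on 2L, 3L and 3R, 1 point each: closely spaced regions in grey and the 328 isolated regions coloured by the replicate lists in which they were found. Isolated regions lie within the cloud of closely spaced ones; those missing from a replicate list are under 3 kb wide, and 1 of them stands out with a score of 1.78.

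The 5 isolated regions with the highest scores in the combined list were strong in both replicates. They lay on 2L from 9758938 to 9766972 and from 6092126 to 6099289, on 3L from 4036255 to 4043501 and from 17230993 to 17235540, and on 2L from 15113282 to 15119161. Their scores in the combined list were between 2.35 and 2.38. In replicate 1 they were 2.34, 2.27, 2.31, 2.26 and 2.22, and in replicate 2 they were 2.42, 2.54, 2.47, 2.51 and 2.54. All 5 were thus above percentile 91 in every list. The region on 3L from 17230993 to 17235540 was 4.55 kb wide and had gaps of 179 and 93.2 kb. The 5 lowest, with combined scores from 0.0163 to 0.188, were narrow and lay on 2L from 11179090 to 11180498 and from 21355805 to 21357232, and on 3R from 7278012 to 7279637, from 21961615 to 21963140 and from 2720752 to 2721931. None of them was found in both replicates: the first was in neither, the third in replicate 2 alone and the other 3 in replicate 1 alone.

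Most isolated regions were found in both replicates, at the rate of the whole list. Of the 328, 289 (88.1%) overlapped a region in both lists, where 89.3% of all regions of the combined list did so. A further 8 were in replicate 1 alone, 15 in replicate 2 alone and 16 (4.88%) in neither, where the whole list had 4.02% in neither. Among closely spaced regions 1310 of 1484 (88.3%) were found in both. Replicate lists covered 92.9% ± 0.687 of the bases of isolated regions and 93.1% ± 1.56 of those of closely spaced ones (SD, n = 2), a difference smaller than the spread between replicates. The combined list was made for the same ChIP samples, so these shares are descriptions.

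Narrow regions that were not found in both replicates were all under 3 kb wide. The lists differ in their narrowest region, which was 1001 bp in the combined list, 1301 bp in replicate 1 and 1305 bp in replicate 2. A narrower region of the combined list could thus be found in a replicate only by overlap with a wider one. What this adds to the difference by width was not tested. All 224 isolated regions of 3 kb or more were found in both, as were all 1036 closely spaced ones of that width. Of the 104 isolated regions under 3 kb, 65 (62.5%) were found in both, and of the 448 closely spaced ones 274 (61.2%). Under 2 kb it was 6 of 38 isolated and 35 of 186 closely spaced regions. The 16 found in neither were narrow and weak: their widths had a median of 1182.5 bp, and their scores a median of 0.327 and a highest value of 0.410.

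Regions with a smaller gap of 50 kb or more had a lower median score than the others, and more of them were narrow. The median score was 1.40 at 10 to 20 kb (177 regions), 1.41 at 20 to 50 kb (108), 0.625 at 50 to 100 kb (33) and 0.938 at 100 kb or more (10), so it did not fall steadily. Across all 328 regions the smaller gap and the score had a Spearman rho of -0.09. Of the regions with a smaller gap under 50 kb, 258 of 285 (90.5%) were found in both replicates and the median score was 1.40. With a smaller gap of 50 kb or more it was 31 of 43 (72.1%) and 0.625, and 22 of these 43 (51.2%) were under 3 kb wide, against 82 of 285 (28.8%). At 3 kb or more, the median score was 1.64 for 129 regions with a smaller gap of 10 to 20 kb, 1.63 for 74 regions with 20 to 50 kb and 1.76 for 21 regions with more. Under 3 kb, the median scores were 0.453, 0.443 and 0.350 for 48, 34 and 22 regions, and 35, 20 and 10 of them were found in both replicates. Their median widths were 2257, 2241 and 1834 bp, so these groups were not of equal width.

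One isolated region under 3 kb had a high score in a single replicate, and it was chosen here after its values were seen. It lies on 3L from 22096097 to 22098259, is 2.16 kb wide and has a score of 1.78 in the combined list. In replicate 2 its score was 2.25, at percentile 88.7, and in replicate 1 no region was listed there. Regions under 3 kb on these stretches had a median score of 0.653 in replicate 2 (555 regions), and 2 of them scored 2 or more. Of the other 38 isolated regions that were not found in both replicates, the highest score in the combined list was 0.495, on 3R from 5295299 to 5298142.

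Isolation held in the replicate lists where the region was found. By the same rule, 295 of the 297 isolated regions found in replicate 1 were isolated there, and 298 of the 304 found in replicate 2. In both lists 282 (86.0%) were isolated. Since the combined list that chose the regions was made for the same ChIP samples, these counts are descriptions and no separate evidence of isolation. The 2 exceptions in replicate 1, on 2L from 9160789 to 9166997 and on 3R from 7893785 to 7902622, were listed there as 2 pieces each. In replicate 2, 5 were listed as 2 pieces, and on 2L the region from 536493 to 545310 had a neighbour 1117 bp away, where the combined list has a gap of 10929 bp. The converse also occurred. Of the 1484 closely spaced regions, 14 were isolated in both replicate lists, and for 13 of them the nearest neighbour in the combined list was a region found in neither replicate.

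The edges of isolated regions were placed with the same precision as those of other regions. For the 283 isolated regions matched 1 to 1 in both replicates, the median shift of an edge between replicates was 81 bp, with quartiles of 37 and 169 bp, against 80 bp for 1227 closely spaced and 80 bp for 314 broad regions. Of the 566 edges, 10 (1.77%) differed by more than 1 kb, and the largest difference was 2080 bp. Regions of the combined list were slightly wider than their replicate counterparts: 278 of the 283 were wider than the mean of both, by a median of 103.5 bp. Between replicates there was no such bias, with a median width difference of -17 bp, replicate 2 minus replicate 1.

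The order of the scores was kept between replicates. Among the 3192 regions of the combined list matched 1 to 1 in both lists, scores were ranked in each replicate, and the isolated regions had a Spearman rho of 0.97 between replicates (283 regions). Of them 150 (53.0%) ranked higher in replicate 2 and 133 lower, where 51.5% of all matched regions ranked higher. The rank moved by a median of 3.76 percentile points, and by more than 10 points for 46 of the 283 regions (16.3%), where 19.5% of all matched regions moved as far. The median change of isolated regions was -0.172 on 2L, 0.627 on 3L and 0.830 on 3R. Regardless of sign, the median was 4.48, 3.62 and 3.52 points in the same order. The rank moved by more than 10 points for 17 of 80, 13 of 85 and 16 of 118 regions.

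**Figure D5:**
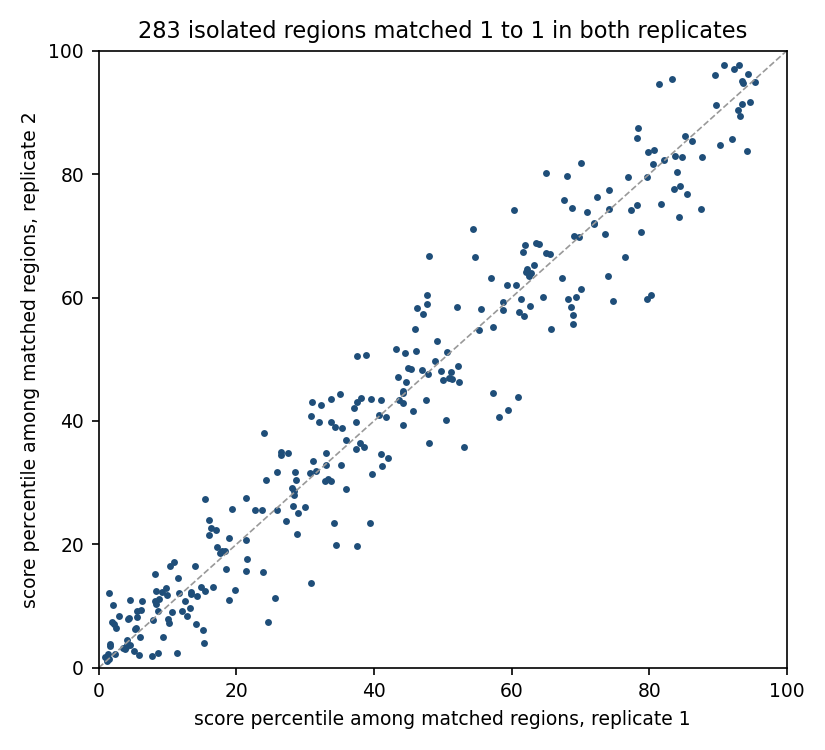
Score percentile of 283 isolated regions in replicate 1 (horizontal axis) and replicate 2 (vertical axis), each ranked among the 3192 regions matched 1 to 1 in both replicate lists. Points follow the dashed line of equal rank, and the largest distance from it is 20.0 percentile points.

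The largest shifts were about 20 points. The 5 largest falls from replicate 1 to replicate 2 were on 3L from 4403104 to 4406480, from percentile 79.7 to 59.7, on 3R from 24744946 to 24749301, from 80.2 to 60.5, on 3L from 18794692 to 18798144, from 37.5 to 19.8, on 3R from 5925763 to 5935275, from 59.5 to 41.8, and on 3L from 12464404 to 12469154, from 58.2 to 40.6. The 5 largest rises were on 2L from 9460034 to 9463616, from 48.0 to 66.7, on 3L from 21170269 to 21176502, from 54.4 to 71.1, on 2L from 12013243 to 12021212, from 65.1 to 80.2, on 3R from 18461927 to 18465298, from 24.0 to 38.0, and on 3L from 872752 to 877620, from 60.4 to 74.2. These are the extremes of 283 regions with 1 value in each replicate, so they are not shown to differ between the samples.

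The smallest gaps just inside the limit were 10046 bp, shared by the neighbours on 3L from 4537829 to 4541424 and from 4551471 to 4553433, and 10059 bp on 3L from 21170269 to 21176502. Just outside it were 9972 bp, shared by the neighbours on 3R from 6983379 to 6986068 and from 6996041 to 6998454, and 9956 bp on 3R from 14732176 to 14735619. In replicate 2 all 3 of the latter were isolated, and in replicate 1 the last of them was. The widths just inside were 9736, 9730 and 9639 bp. The narrowest regions beyond the width limit that had 10 kb on both sides were 10107, 10148 and 10177 bp wide.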

How the data were processed

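The authors deposited 3 lists of enriched regions, 1 per ChIP replicate and 1 combined, in which each region has a score without a stated unit. Per the submitters' processing notes, Bowtie 0.12.7 aligned the reads; caller and thresholds are not given in the sources used here. Each weak region that a caller lists can end the isolation of its neighbours. The depth is unknown.

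Gaps count the bases between listed regions, and regions outside the chosen stretches still count as neighbours. A region was found in a replicate when it overlapped that list by at least 1 bp, and matched 1 to 1 when neither overlapped a further region. Like-width comparisons used 1 kb classes with at least 5 regions of each kind, weighted by isolated regions. Values were computed with Python 3.11.15, numpy 2.4.6 and pandas 2.3.3, with code tested on simulated lists.

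Members and quantities were chosen with earlier results of these data known. The same lists chose the members, so values are described without tests; with 2 replicates no exact test could reach 0.05. Regions named by coordinate were the 5 with the largest smaller gap, the 5 highest, lowest and widest, the 3 narrowest, the 5 largest rises and falls in rank and the 3 on either side of each limit; others are said to be chosen after their values were seen. No region was assigned to a gene and no sequence was read, since the gene table was of Release 6. The alternatives were other gap and width limits, merging, a score minimum, whole arms, a 50% reciprocal overlap and leaving out either replicate.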

Additional observations from a re-analysis of the deposited data

How the results depend on the processing

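Of 85 alternative values for 12 results, 47 stayed within set limits and 38 moved further. The limits were 1 SD between replicates, a 95% binomial interval or, for the count, within 1.5 times. The binomial intervals treat regions and edges of the same libraries and caller as independent, so they may be too narrow. Changes of order were not counted: 3R went from the densest to the least dense arm when regions under the median score were left out. Other gap and width limits choose other regions, so the number of isolated regions and their density change by construction. The source of the other moves was not tested. A gap limit of 5 kb gave 577 regions, 31.8% of narrow regions and 7.59, 7.56 and 8.62 per Mb on 2L, 3L and 3R. A gap limit of 20 kb gave 151 regions, 8.33% of narrow regions, a median score percentile of 36.9, 82.8% found in both replicates, 9.27% in neither, 84.8% still isolated in a replicate list, and 1.73, 1.78 and 2.64 per Mb. A width limit of 5 kb gave a median width of 3104.5 bp, a percentile of 26.5, 82.4% found in both, 87.2% still isolated and 2.86, 2.76 and 3.49 per Mb. Merging regions less than 1 kb apart gave 26.8% of narrow regions, a percentile of 40.1, 91.4% still isolated, a difference from closely spaced regions at like width of -0.956 points, and 4.77 and 4.25 per Mb on 2L and 3L. Keeping regions at or above the median score gave 38.2% of narrow regions, a median width of 5669 bp, a percentile of 70.5, 99.3% found in both and 0% in neither, 49.8% still isolated (the replicate lists were not restricted), edges 64 bp apart, and 4.29 and 3.64 per Mb on 3L and 3R. Leaving out either replicate gave 90.5% to 92.7% of isolated regions found in the other, 7.32% to 9.45% not found, 89.9% to 90.9% still isolated and a difference at like width of -3.34 to -1.20 points; with 1 replicate left, edges cannot be compared. With the scores of the combined list, a comparison chosen after seeing the data, that difference was -1.45 points. Using the whole arms and a reciprocal overlap of 50% moved no value beyond these limits. No paired analysis was possible because no list was made for the inputs alone, so ChIP and input values cannot be set side by side. The depth is unknown, and what it limits was not tested.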
